A study of Mus musculus with 56 samples.

Results

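The 35 genes described here encode the machinery of fatty acid oxidation in mitochondria and peroxisomes, and were chosen by symbol from 55011 gene rows as enzymes of fatty acid activation, the carnitine shuttle, beta-oxidation and the electron transfer flavoprotein, with a set of regulators linked to the PPAR receptors. They were followed in Tregs, regulatory T cells that depend on Foxp3 and restrain immune responses, in a series on obesity. C57BL/6 mice of genotype vTreg53 Tg+, which carry a transgenic T cell receptor, went onto 1 of the diets abbreviated NCD and HFD at 12 weeks of age and stayed on it until week 2, 4, 8 or 16, or were taken at week 0. Tregs with the transgenic clonotype were sorted from the spleen and from visceral adipose tissue (VAT) of what the labels call recipient mice, with 1000 cells per library. Each of the 9 groups per tissue held 3 libraries, except spleen NCD week 4, VAT HFD week 4 and VAT NCD week 16 with 2. A further 5 libraries came from mice aged 8 to 10 weeks with the alleles PPARgamma-tdT KI/KI and Foxp3-GFP KI/y, which had been injected with IL-33. Their VAT Tregs positive for the PPARγ reporter were kept in culture for 3 days in IL-2 (2000 U/ml) and IL-33 (10 ng/ml), without IFNa (3 libraries) or with it at 50 ng/ml (2 libraries), and sorted again on Foxp3/GFP. All mice of the diet series shared the receptor transgene, and all cultures shared the reporter alleles, IL-33 and IL-2.

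Long-chain fatty acids are joined to coenzyme A by acyl-CoA synthetases and passed to carnitine by CPT1 at the outer mitochondrial membrane. They are carried across the inner membrane by SLC25A20 and shortened in repeated rounds of dehydrogenation, hydration, dehydrogenation and thiolysis. Electrons of the first dehydrogenation pass through the electron transfer flavoprotein to the respiratory chain, and peroxisomes run a parallel pathway for very long chains. The PPAR receptors are lipid-sensing transcription factors that act on many of these genes, and PPARγ is known as a defining factor of Tregs in visceral fat.

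Stretches just before the RefSeq start sites are shown for 4 members called in the diet results: Cpt1a and Slc25a20 for the spleen, Acadm and Ucp2 for VAT. Other members called in VAT are not shown, among them Acaa2 and Ech1, whose calls were the steadier ones beside that of Acadm. PPAR receptors with their RXR partner are known to bind direct repeats of AGGTCA. Each line is bases 250 to 51 before the RefSeq start site (GRCm38.p6), read 5′ to 3′ on the strand of the gene, and capitals mark AGGTCA on either strand. The stretches were taken to hold no GENCODE M21 exon of these 4 genes, and exons of other genes were not checked. The stretch of Cpt1a lies inside the GENCODE span of the gene, which begins before the RefSeq start site, and would then be intronic in that annotation. In mm10 the genes span chr19:3322334-3385733 (Cpt1a), chr9:108662088-108684641 (Slc25a20), chr3:153922357-153944632 (Acadm) and chr7:100493337-100502020 (Ucp2). The printed stretches are chr19:3323051-3323250 (+) for Cpt1a, chr9:108661886-108662085 (+) for Slc25a20, chr3:153944694-153944893 (−) for Acadm and chr7:100493108-100493307 (+) for Ucp2.
Cpt1a: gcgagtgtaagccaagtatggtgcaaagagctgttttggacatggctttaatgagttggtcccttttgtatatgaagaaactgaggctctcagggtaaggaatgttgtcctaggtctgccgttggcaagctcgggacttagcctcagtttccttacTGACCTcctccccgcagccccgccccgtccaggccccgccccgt
Slc25a20: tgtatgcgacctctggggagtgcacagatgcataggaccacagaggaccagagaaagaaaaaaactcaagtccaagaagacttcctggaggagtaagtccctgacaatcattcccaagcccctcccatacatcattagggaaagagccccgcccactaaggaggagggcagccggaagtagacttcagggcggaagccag
Acadm: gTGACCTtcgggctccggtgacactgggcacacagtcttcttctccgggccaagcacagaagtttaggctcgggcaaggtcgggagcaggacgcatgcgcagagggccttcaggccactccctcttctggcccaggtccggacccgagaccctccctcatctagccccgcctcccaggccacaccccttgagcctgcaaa
Ucp2: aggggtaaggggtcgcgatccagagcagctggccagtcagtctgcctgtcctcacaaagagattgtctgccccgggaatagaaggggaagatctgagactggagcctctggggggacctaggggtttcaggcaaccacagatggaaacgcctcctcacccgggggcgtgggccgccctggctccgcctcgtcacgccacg
Cpt1a holds the motif on its reverse strand with its first printed base at -94 from the start site, and Acadm likewise at -249. The stretches of Slc25a20 and Ucp2 hold no copy. Over the whole promoter windows of the RefSeq table, AGGTCA on either strand occurred in 4 of the 29 members with an entry (Acadm, Acadvl, Cpt1a and Echs1) and in 5340 of 32851 promoters of any gene (16.3%). The repeat AGGTCANAGGTCA, which contains the shorter motif, occurred in 13 promoters (0.0396%), none of a member. A match describes the letters only.

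Total counts ran from 3248686 to 5826965 in the 26 spleen libraries, 3319873 to 6091439 in the 25 VAT libraries and 5408696 to 8764390 in the 5 cultures, so that 3 counts, taken as a floor that covers counting error only, were worth 0.342 to 0.923 CPM (CPM being the count scaled to a common library total). The tissue field of the labels says visceral adipose tissue for every library, spleen included, and the titles were used to assign tissue. The titles and the markers pointed the same way: 5 VAT Treg markers summed to 2376 to 6901 CPM in VAT and 336 to 845 CPM in spleen, and Pparg stood at 17.8 to 122 and 0 to 7.76 CPM. Treg markers (6 genes) summed to 5420 to 7721 CPM in VAT and 3203 to 4722 CPM in spleen. Of other cell types, 9 macrophage genes summed to at most 12.0 CPM in VAT and 27.5 CPM in spleen. The B cell sum of 320.1 to 6086 CPM in VAT was nearly all Ighm (315 to 6060 CPM). Adipoq, which defines adipocytes, was at 0 in 23 of 25 VAT libraries and at most 0.241 CPM in the others. Other genes of the adipocyte list were detected. Pnpla2 and Lipe had a mean log2 CPM of 6.21 and 4.13 in the VAT model and of 6.26 and 4.78 in the spleen model. Fabp4 stood at 1.41 in the VAT model. Sums of the adipocyte, stromal and NK and CD8 cell lists are not given here. The labels do not say whether the libraries of a group came from separate mice, and each p-value therefore reflects only how much these libraries vary, which may be technical.

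Of the 35 members, 32 passed the filter on low counts in every model, and the 3 that never did were Ppara, Ppargc1a and Pdk4. Ppara, the main PPAR of liver fatty acid oxidation, was at 0 in 22 of 25 VAT, 19 of 26 spleen and 5 of 5 culture libraries, and reached at most 1.31 CPM. Ppargc1a, a coactivator of mitochondrial genes, was at 0 in 18 of 25 VAT and 21 of 26 spleen libraries and reached at most 2.11 CPM. Pdk4, a kinase that restrains pyruvate oxidation, was at 0 in 26 of 26 spleen and 21 of 25 VAT libraries. At this depth these 3 genes stood at or near the floor, and no difference in them could be measured.

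The enzymes themselves were expressed over a wide range. Per kilobase of exon, the highest mean levels in VAT Tregs without HFD (14 libraries of week 0 and NCD) were those of Acadl (97.2 CPM per kb), the mitochondrial thiolase Acaa2 (96.5), Ech1 (90.5) and Ucp2 (89.1), an inner-membrane carrier named as an uncoupling protein. Acadvl stood at 59.3 CPM per kb, Cpt1a at 24.9 and Hadha at 22.9. The lowest of the tested members were Acsl3 (0.733 CPM per kb), Ppard (1.06), Acsl1 (1.44) and Ppargc1b (1.47). In spleen Tregs without HFD, Ucp2 (77.7 CPM per kb) and Acaa2 (77.3) led, and Cpt1a stood at 10.3. Ehhadh, the peroxisomal bifunctional enzyme, was at 19.2 to 41.0 CPM in VAT and 2.33 to 4.25 CPM in the cultures, which were a separate experiment with another mouse line.

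VAT Tregs carried more mRNA of the carnitine shuttle, the acyl-CoA dehydrogenases and the electron transfer flavoprotein than spleen Tregs. Without HFD, 20 of the 32 tested members were higher in VAT and 3 were lower at an adjusted p under 0.05 (edgeR's quasi-likelihood test), where 29.1% of all 15601 genes tested were higher and 30% lower. The median log2 fold change was 0.44 over the members and -0.04 over all genes. In bulk samples, fewer expressing cells and less RNA per cell cannot be told apart.

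Cpt1a, the liver-type and rate-limiting CPT1, had a lowest, median and highest level of 134, 185 and 332 CPM in the 14 VAT libraries and of 57.7, 79.0 and 117 CPM in the 14 spleen libraries. Every VAT library was above every spleen library. The log2 fold change was 1.48 ± 0.10 (SE, adjusted p = 1.02e-16), which is 2.79-fold. Slc25a20, the carnitine-acylcarnitine carrier, ran from 47.2 (median 66.7) to 99.9 CPM in VAT and from 31.3 (median 43.4) to 73.7 CPM in spleen, and the ranges overlapped (log2 fold change 0.81 ± 0.10, adjusted p = 6.14e-10). Crat, the acetyltransferase for short acyl groups, was low in both tissues, at 4.77 to 30.7 CPM in VAT and 1.64 to 11.2 CPM in spleen, and was higher in VAT by 1.64 ± 0.21 (adjusted p = 8.74e-09). Cpt2, which returns the acyl group to coenzyme A inside the mitochondrion, did not pass the test (0.05 ± 0.12, adjusted p = 0.751). The shuttle thus had 3 of its 4 members higher in VAT.

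All 4 acyl-CoA dehydrogenases, which carry out the first step for chains of different length, were higher in VAT. Acadl, the long-chain enzyme, stood at 169 (median 196) to 222 CPM in VAT and 72.7 (median 107) to 127 CPM in spleen, with no overlap (1.09 ± 0.07, adjusted p = 7.32e-18). Acadvl, which acts on the longest chains, was at 127 (median 161) to 197 CPM against 86.1 (median 99.97) to 121 CPM (0.87 ± 0.07, adjusted p = 8.12e-14). Acads was higher by 0.82 ± 0.08 and Acadm, the medium-chain enzyme, by 0.49 ± 0.08. Of Acadvl exon bases 42.9% are shared with Dvl2 on the opposite strand, and no source used here gives the strand setting of the counting.

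The 3 genes of the electron transfer flavoprotein and its dehydrogenase were called higher in VAT under TMM scaling. Etfb, the beta subunit, ran from 50.2 (median 66.4) to 82.1 CPM in VAT and from 26.9 (median 31.9) to 41.2 CPM in spleen, again without overlap (1.24 ± 0.09, adjusted p = 2.15e-16). Etfdh, which passes the electrons on to ubiquinone, differed by 0.67 ± 0.08 (adjusted p = 5.43e-10), and Etfa, the alpha subunit, by 0.23 ± 0.06 (adjusted p = 0.00179), a call lost when libraries were scaled by their totals (0.01, adjusted p = 0.859). Etfb shares 53.0% of its exon bases with the predicted gene Gm45233 on the same strand, so its counts are uncertain.

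The later mitochondrial steps were mixed, with 3 of 6 members higher and 1 lower. Hadh, the short-chain hydroxyacyl-CoA dehydrogenase, was at 182 (median 235) to 290.1 CPM in VAT and 106 (median 142) to 162 CPM in spleen (0.95 ± 0.07, adjusted p = 2.38e-15), and the 2 tissues did not overlap. Acaa2 was higher by 0.54 ± 0.07 and Hadha, the alpha subunit of the trifunctional protein, by 0.25 ± 0.05. Echs1, the short-chain hydratase, was lower (-0.17 ± 0.07, adjusted p = 0.0416). That call remained in 12 of 28 fits that left out 1 library and in 3 of 6 alternative settings, with an adjusted p up to 0.29. Hadhb, the beta subunit of the trifunctional protein, and Acat1 did not pass the test.

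Among the isomerases and auxiliary enzymes 3 of 5 were higher and 1 lower. Echdc2, a protein of the enoyl-CoA hydratase family, had the largest fold change of any member: 9.20 (median 20.9) to 29.7 CPM in VAT against 0 (median 2.42) to 5.15 CPM in spleen, a log2 fold change of 3.28 ± 0.30 (adjusted p = 1.03e-12). Ech1, an isomerase that handles dienoyl-CoAs, stood at 159 (median 207) to 247 CPM against 110 (median 140) to 179 CPM (0.81 ± 0.06, adjusted p = 1.73e-16), with some overlap. Decr1, the 2,4-dienoyl-CoA reductase, was the reverse, at 20.4 to 34.1 CPM in VAT and 33.6 to 51.9 CPM in spleen (-0.43 ± 0.09, adjusted p = 7.72e-05). Of the synthetases, Acsl4 was higher (0.79 ± 0.08) and so was Acsl5 (0.23 ± 0.06), while Acsl1 was lower (-0.41 ± 0.16, adjusted p = 0.0238). The Acsl1 call was lost without spleen NCD week 4 replicate 1 (adjusted p = 0.156) and without VAT NCD week 16 replicate 3 (adjusted p = 0.0686). In the peroxisomal group only Ehhadh passed (0.57 ± 0.17), and Acaa1a and Hsd17b4 did not. Ucp2 was higher by 0.44 ± 0.06, whereas Ppard (-0.23 ± 0.15, adjusted p = 0.193) and the coactivator Ppargc1b (-0.28 ± 0.21, adjusted p = 0.251) did not pass.

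**Figure D1:**
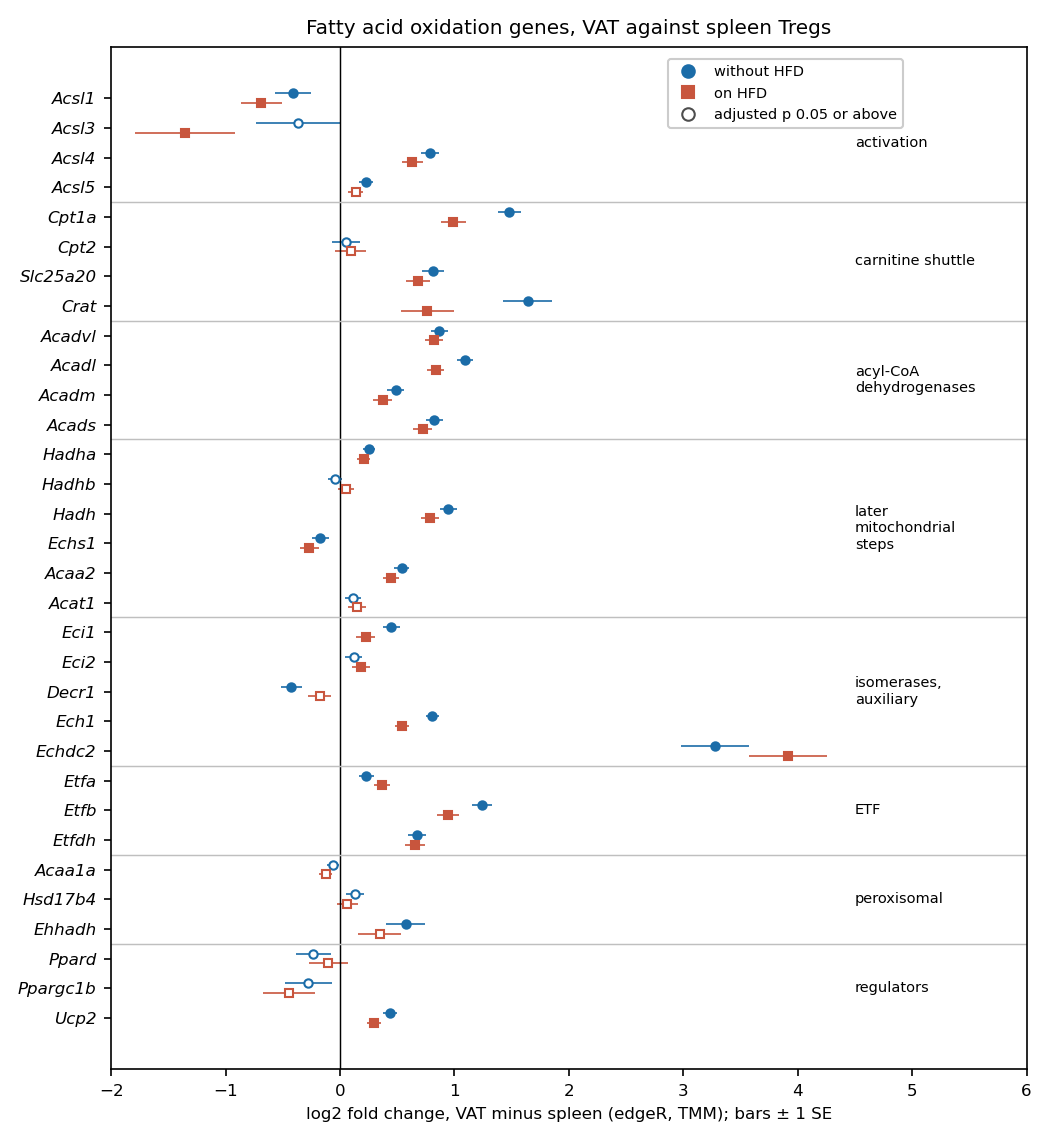
Log2 fold change of VAT against spleen Tregs (x axis, edgeR with TMM scaling, bars ± 1 SE) for the 32 tested members (y axis, grouped by role), without HFD (circles, 14 libraries per tissue) and on HFD (squares, 11 VAT and 12 spleen libraries). Open symbols have an adjusted p of 0.05 or above, and most filled symbols lie to the right of 0, with Echdc2 at 3.28 and 3.91.

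The same comparison in mice on HFD contrasts none of these libraries. Both comparisons came from the model of all 51 mouse libraries and share its scaling and spread, so they are not fully independent. On HFD 19 members were higher in VAT and 3 lower, where 22.3% of all genes were higher and 25.1% lower. The median was 0.32 over the members and -0.06 over all genes. In both settings 18 members were higher and 2, Acsl1 and Echs1, were lower in the main model, and 0 were called in opposite directions. The Echs1 call without HFD was unsteady, as given above. Of all 15601 genes 3110 were higher in both, 3290 were lower in both and 12 were called in opposite directions. Cpt1a differed by 0.99 ± 0.11 (adjusted p = 1.75e-10), Acadl by 0.84 ± 0.08 (adjusted p = 1.35e-12), Acadvl by 0.82 ± 0.08, Hadh by 0.79 ± 0.08, Etfb by 0.95 ± 0.10, Ech1 by 0.54 ± 0.06, Echdc2 by 3.91 ± 0.34 and Crat by 0.76 ± 0.23 (adjusted p = 0.00552). Acsl3 was lower in VAT on HFD (-1.36 ± 0.44, adjusted p = 0.0092) at levels of 0 to 2.54 CPM in VAT and 1.71 to 11.1 CPM in spleen. Ppard (-0.10) and Ppargc1b (-0.45) again did not pass, and Hadha (0.21 ± 0.06) and Ucp2 (0.30 ± 0.06) were higher.

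The scaling bears on the size of these differences. The TMM factors of edgeR placed the median gene at -0.04 without HFD and at -0.06 on HFD, while scaling by library totals placed it at -0.26 and -0.28. Under library totals 16 members were higher and 7 lower without HFD, and 13 higher and 7 lower on HFD. The member medians were 0.23 and 0.11. Of all 15601 genes 3243 were then higher and 6827 lower without HFD, and 2236 higher and 6347 lower on HFD. The share of called genes that were higher in VAT was 32.2% in place of 49.2% without HFD and 26.1% in place of 47% on HFD. Of the small differences, Eci2 and Hadha on HFD changed sign (-0.03 and -0.01), as did Hadhb (-0.17). Without HFD the calls of Etfa, Hadha (0.04, adjusted p = 0.542), Acsl5 (0.01, adjusted p = 0.908) and Ehhadh (0.36, adjusted p = 0.063) were lost, and on HFD those of Ucp2 (0.08, adjusted p = 0.288), Acadm, Eci1, Eci2, Etfa and Hadha. Cpt1a, Acadl, Etfb, Hadh, Acadvl, Acads, Ech1, Slc25a20, Crat and Echdc2 stayed higher in VAT under every scaling. A list of 10 immediate early and heat shock genes summed to 8237 to 26250 CPM in VAT and 533 to 1046 CPM in spleen, and its part in the tissue differences was not tested.

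Of 32 tested genes of fatty acid oxidation that are not members (other synthetases, thioesterases, transporters and oxidases), 8 were higher and 10 lower in VAT without HFD, shares near those of all genes (29.1% and 30%). The 3 with the smallest adjusted p were Slc22a5, the plasma membrane carnitine transporter (-1.09, adjusted p = 1.09e-09), Scp2 (0.60) and Crot (0.47). Of 17 peroxisome biogenesis genes 6 were higher and 4 lower (Pex11a 1.44 and Pex10 -1.27 among them). Of 23 tested partners and targets of the PPARs, 13 were higher and 1 lower, led by Plin2, the lipid droplet coat protein (4.68), Pparg (7.46) and the corepressor Ncor1 (0.54). On HFD these 3 lists had 5 higher and 8 lower, 5 higher and 3 lower, and 11 higher and 3 lower.

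In spleen Tregs, HFD went with more Cpt1a. The 12 HFD libraries ran from 101 (median 129.9) to 181 CPM and the 11 NCD libraries from 57.7 (median 70.9) to 117 CPM. The ranges overlapped, and every weekly HFD mean was above the NCD mean of its week. Over the equally weighted 4 weeks the log2 fold change was 0.76 ± 0.11 (adjusted p = 0.00248), or 1.69-fold, and the call remained in 23 of 23 fits that left out 1 library. With it, 2 of the 32 members were higher and 0 lower, where 0.613% of all 14686 genes were higher and 0.32% lower. The count behind these shares, 137 genes, ran from 16 to 283 when 1 library was left out. The member median was 0.07 and that of all genes 0.00.

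Week by week, Cpt1a in spleen was at 58.2, 70.9 and 117 CPM on NCD and 132, 162 and 181 CPM on HFD at week 2. At week 8 it was at 60.8, 84.7 and 57.7 CPM on NCD and 102, 116 and 132 CPM on HFD. At week 16 it was at 77.9, 84.0 and 60.2 CPM on NCD and 117, 138 and 128 CPM on HFD. In these 3 weeks no HFD library was below an NCD library. At week 4 the NCD libraries (65.9 and 103 CPM) and the HFD libraries (101, 111 and 153 CPM) overlapped.

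The weekly fold changes of Cpt1a were 0.92 ± 0.21, 0.52 ± 0.24, 0.82 ± 0.22 and 0.78 ± 0.21 at weeks 2, 4, 8 and 16. None passed alone in the main edgeR model (adjusted p = 0.187, 0.477, 0.663 and 0.475). Without the filter on low counts Cpt1a was called at weeks 2, 8 and 16. All genes called were then 85, 26 and 26, in place of 4, 0 and 0. Without spleen NCD week 2 replicate 3, the library at 117 CPM, the week 2 value was 1.26 (adjusted p = 0.0227). With the filter, no member was called in any single week of the spleen, where 0.0272%, 1.24%, 0% and 0% of all genes were called at weeks 2, 4, 8 and 16. At an unadjusted p under 0.05 there were 3, 3, 3 and 1 members and 1402, 1414, 716 and 975 genes in all, and DESeq2 called Cpt1a at week 2 (0.94, adjusted p = 0.0164) and 0 members in the other weeks.

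Slc25a20, which works in series with CPT1, was the other member that rose in spleen on HFD. It ran from 31.3 (median 41.7) to 73.7 CPM on NCD and from 45.2 (median 58.9) to 71.4 CPM on HFD, and the ranges overlapped, with 3 of the 11 NCD libraries above the lowest HFD library. The log2 fold change was 0.40 ± 0.10 (adjusted p = 0.0482), a call that remained in 5 of 23 fits that left out 1 library, and the highest adjusted p was 0.114, without spleen NCD week 4 replicate 1. Fitting only the groups compared gave an adjusted p of 0.0514. The other named members stood at 0.21 ± 0.09 (Acadl), 0.07 ± 0.06 (Hadha), 0.08 ± 0.07 (Ucp2), -0.03 ± 0.15 (Acsl1), 0.14 ± 0.18 (Ppard) and 0.32 ± 0.19 (Ppargc1b), none past the test. Among PPAR partners and targets 1 of 21 rose in spleen, Plin2 (0.87 ± 0.16, adjusted p = 0.00963), at 9.31 to 25.6 CPM on NCD and 19.2 to 52.8 CPM on HFD. Pparg itself stayed at 0 to 7.76 CPM (1.44, adjusted p = 0.488). VAT Treg markers, of which 1 of 5 passed, summed to 336 to 845 CPM on NCD and 453 to 837 CPM on HFD, and the B cell list, with 0 of 4 past the test, to 1289 to 2669 and 1566 to 4557 CPM, and their part in these results was not tested. Of 32 other oxidation genes 0 passed in edgeR (the smallest adjusted p was that of Acacb at 0.0655), and of 17 peroxisome biogenesis genes 0 passed.

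**Figure D2:**
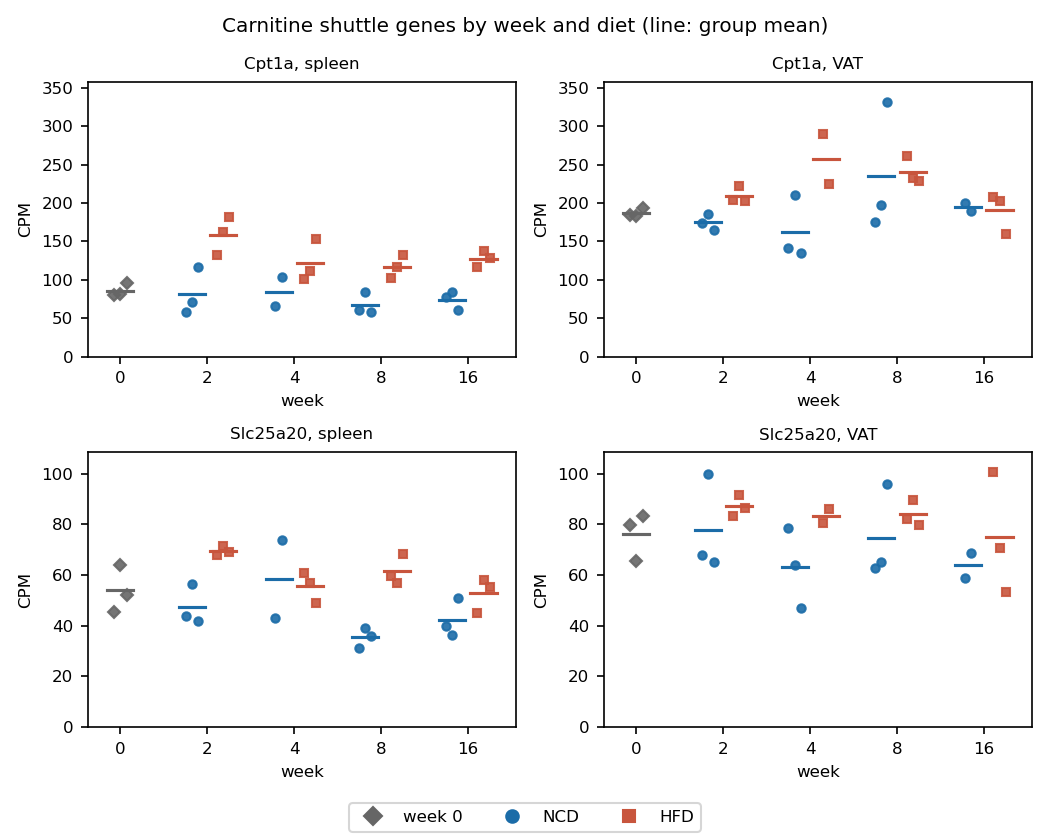
Cpt1a (upper panels) and Slc25a20 (lower panels) in spleen and VAT Tregs by week (x axis) in CPM (y axis), with 1 point per library and a line at each group mean. In spleen the HFD points lie above the NCD points for Cpt1a at weeks 2, 8 and 16. In VAT the Cpt1a ranges of the 2 diets, taken over all weeks, overlap, with all points between 134 and 332 CPM.

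In VAT, where Cpt1a was higher than in spleen, HFD did not go with a called change of Cpt1a in the main model. Without the filter on low counts Cpt1a was called in the mean of the 4 weeks, with 805 genes called in all in place of 595. The 11 HFD libraries ran from 160.0 (median 222) to 290.4 CPM and the 11 NCD libraries from 134 (median 186) to 332 CPM. Over the 4 weeks the log2 fold change was 0.24 ± 0.09 (adjusted p = 0.162), and without VAT NCD week 8 replicate 3, the library at 332 CPM, it was 0.32 (adjusted p = 0.00797). Without VAT NCD week 4 replicate 2 it was 0.31 (adjusted p = 0.0416). The difference between the VAT and spleen effects of HFD on Cpt1a was -0.53 ± 0.15 (adjusted p = 0.0505). It passed in DESeq2 (-0.52, adjusted p = 0.0262), without the filter on low counts (-0.52, adjusted p = 0.000817) and without week 4 (-0.78, adjusted p = 0.00458). These fits called 631, 797 and 635 genes in all, in place of 380. In edgeR 0 members were called in this difference of mean effects, where 2.44% of all genes were, and 7 members and 2273 of 15601 genes had an unadjusted p under 0.05. Of the other lists, Acacb (-3.34) and Acox3 (-0.44) among oxidation genes and Plin2 (-1.17, adjusted p = 0.00455) among PPAR partners and targets differed between the tissues, while Pparg did not pass (-2.20, adjusted p = 0.267). The effect was also lower in VAT for Klrb1c of the NK and CD8 cell list (-5.07, adjusted p = 0.000495). Areg of the VAT Treg markers (-2.13, adjusted p = 0.036) and Egr1 of the immediate early genes (-1.13, adjusted p = 0.0275) went the same way. The other tested genes of the marker lists did not pass. The part of these genes in the Cpt1a difference was not tested.

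Of the weekly diet comparisons, VAT Tregs at week 16 had the most members called. On HFD (3 libraries) 6 of 32 were lower than on NCD (2 libraries) and 0 were higher. Of all 14164 genes 4.31% were higher and 4.93% lower. The median was -0.14 over the members and 0.02 over all genes, and 22 of the 32 fold changes were negative. The 6 were Ucp2, Acaa2, Ech1, Acadm, Acsl4 and Etfb, which came from 6 of the 8 roles and not from the carnitine shuttle or the peroxisomal enzymes.

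Ucp2 stood at 805 and 757 CPM in the NCD week 16 libraries and at 587, 512 and 479.9 CPM in the HFD week 16 libraries. The groups did not overlap, and the week 0 libraries (518, 561 and 556 CPM) lay within the HFD range. The log2 fold change was -0.69 ± 0.12 (adjusted p = 0.00041), or 0.622 times the NCD level. Acaa2 stood at 158 and 157 CPM on NCD and at 95.1, 113 and 111 CPM on HFD. The NCD libraries were close to each other and near week 0 (140.3, 153 and 133 CPM), and every HFD library was lower (-0.68 ± 0.14, adjusted p = 0.00136). Ech1 stood at 247 and 220.4 CPM on NCD and at 184, 162 and 147 CPM on HFD. Here too the groups did not overlap (-0.63 ± 0.13, adjusted p = 0.00244).

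Acadm stood at 77.0 and 81.9 CPM on NCD and at 54.4, 48.0 and 49.5 CPM on HFD, against 55.2, 71.6 and 56.7 CPM at week 0. Its fold change was -0.77 ± 0.18 (adjusted p = 0.00533). Acsl4, a synthetase with a preference for arachidonic acid, stood at 123 and 107 CPM on NCD and at 82.2, 104 and 74.3 CPM on HFD, with nearest values of 107 and 104 CPM (-0.52 ± 0.16, adjusted p = 0.039). Etfb stood at 63.9 and 68.9 CPM on NCD and at 55.0, 47.5 and 40.7 CPM on HFD (-0.59 ± 0.19, adjusted p = 0.0475). Their stability differed: the calls of Ucp2 and Acaa2 remained in 5 of 5 fits that left out 1 library, those of Acadm and Ech1 in 4 of 5. The Acsl4 call remained without HFD week 16 replicate 2 alone (adjusted p up to 0.296 without 1 of the other libraries) and the Etfb call without HFD week 16 replicate 1 alone (adjusted p up to 0.26). The Acadm call was lost without VAT NCD week 16 replicate 3 (adjusted p = 0.0698) and the Ech1 call without VAT NCD week 16 replicate 2 (adjusted p = 0.0588). Under library totals, which placed the median gene at 0.14, the members called were 4, without Acsl4 and Etfb. Of all genes 878 were then higher on HFD and 506 lower, so that 63.4% of all calls were higher in place of 46.7%.

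The other named members at week 16 in VAT did not pass. Their fold changes were -0.15 ± 0.19 for Cpt1a (adjusted p = 0.742), -0.09 ± 0.12 for Acadl, -0.00 ± 0.12 for Hadha, -0.40 ± 0.40 for Acsl1, 0.50 ± 0.37 for Ppard and 0.49 ± 0.56 for Ppargc1b. Acsl3 had the lowest value (-2.45 ± 1.01, adjusted p = 0.144) at 2.42 and 7.99 CPM on NCD and 0, 1.03 and 2.13 CPM on HFD.

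The 2 NCD and 3 HFD libraries of week 16 also differed in genes that are not members. VAT Treg markers summed to 5898 to 6603 CPM on NCD and 2376 to 4158 CPM on HFD, the B cell list to 320.1 to 333 and 1641 to 2452 CPM (nearly all Ighm), and immediate early and heat shock genes to 26160 to 26250 and 8237 to 18050 CPM. By the test, 4 of 5 VAT Treg markers were lower on HFD, as were 6 of the 10 genes of the immediate early and heat shock list, and 1 of 5 tested B cell genes was higher. Treg markers summed to 6610 to 6727 and 5770 to 6288 CPM, and 9 macrophage genes to at most 8.05 CPM in either. Over all VAT libraries, the highest immediate early and heat shock sum (26250 CPM) and the lowest B cell sum (320.1 CPM) were on NCD at week 16. The lowest immediate early and heat shock sum (8237 CPM) was on HFD at week 16. The part of these differences in the lower levels of the 6 members was not tested. Pparg stood at 113 and 99.7 CPM on NCD and at 17.8, 52.8 and 23.4 CPM on HFD (-1.86 ± 0.35, adjusted p = 0.00136). With it 4 of 23 PPAR partners and targets were lower and 0 higher, the others being Ncor1 (-0.39), Plin2 (-1.54 ± 0.35, adjusted p = 0.00883) and Fabp4 (-4.49). Fabp4 is also on the adipocyte list, and its mean log2 CPM in the VAT model was low (1.41). The part of adipocyte RNA in its difference was not tested. Of 32 other oxidation genes Scp2, which encodes a peroxisomal thiolase and sterol carrier protein, was lower (-0.87, adjusted p = 0.00369) and the thioesterase Acot2 higher (0.83). Of 17 peroxisome biogenesis genes Pex16 was higher (0.81) and Pex3 lower (-0.66).

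**Figure D3:**
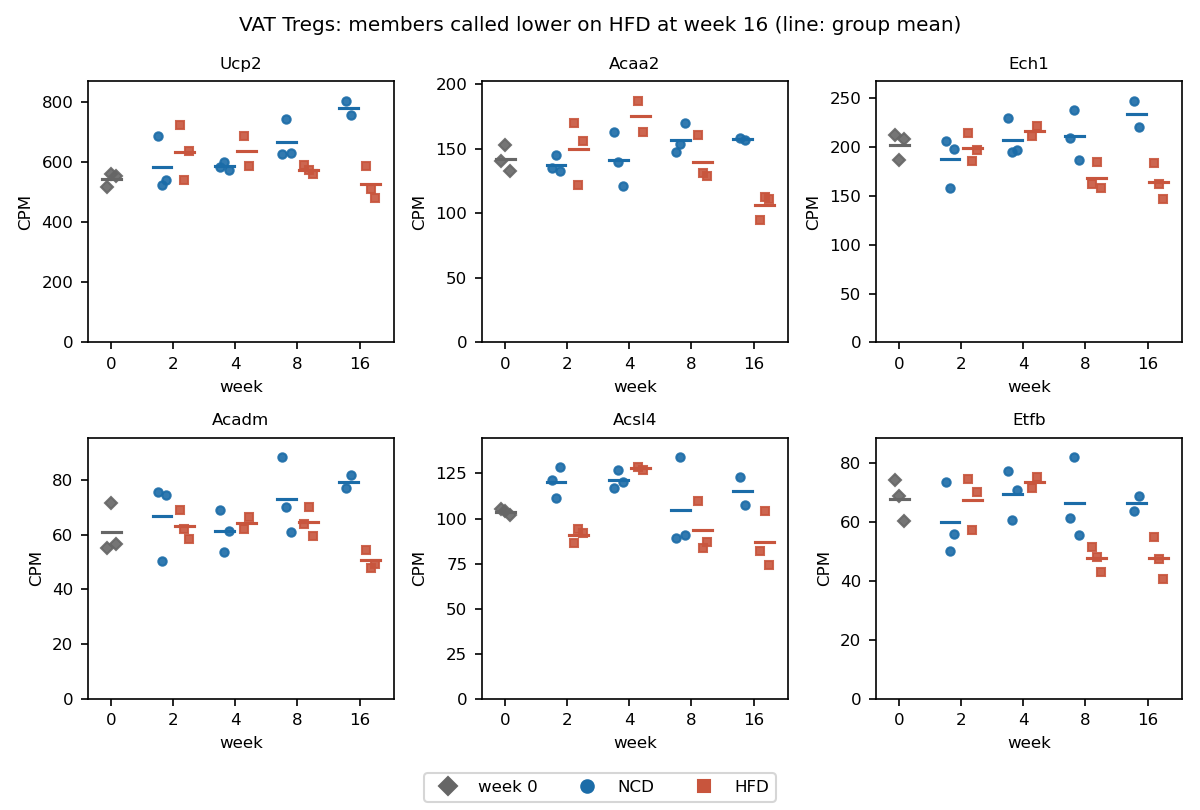
Levels in CPM (y axis) by week (x axis) in VAT Tregs for the 6 members called lower on HFD than on NCD at week 16, with 1 point per library and a line at each group mean. At week 16 each NCD point lies above each HFD point of its panel, with Ucp2 at 805 and 757 CPM on NCD and between 479.9 and 587 CPM on HFD.

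Earlier weeks in VAT gave few calls. At week 2, 0 members were called in edgeR where 0.0565% of all genes were, 2 members and 1429 of 14164 genes in all had an unadjusted p under 0.05, and DESeq2 called 0 members. At week 4, 1 member rose, Echdc2, where 0.0141% of all genes rose and 0.00706% fell. It stood at 9.20, 9.95 and 12.5 CPM on NCD and at 42.5 and 25.6 CPM on HFD (1.75 ± 0.30, adjusted p = 0.0245). The call was lost without VAT HFD week 4 replicate 2 (adjusted p = 0.559), VAT NCD week 4 replicate 1 (adjusted p = 0.158) or replicate 2 (adjusted p = 0.0675). The other NCD libraries of VAT ran from 12.0 to 26.9 CPM and the other HFD libraries from 14.4 to 25.9 CPM, so that 2 of the 3 NCD libraries of week 4 were below and 1 HFD library of week 4 was above these ranges. Without the filter on low counts Cpt1a was called higher at week 4 as well, with 115 genes called in all in place of 3. At week 8, 0 members were called in edgeR and in DESeq2 where edgeR called 1.33% of all genes, and 6 members and 1859 genes in all had an unadjusted p under 0.05.

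Over the mean of the 4 weeks 0 members were called in VAT by edgeR or DESeq2 with the filter on low counts, where edgeR called 4.2% of all genes. In edgeR 9 members and 2323 genes in all had an unadjusted p under 0.05. Without week 4 the count was 4, all lower on HFD (Acadm, Acsl4, Ech1 and Ucp2), while the count of all genes called was 928 in place of 595. Ucp2 stood at -0.13 ± 0.06, Acadl at -0.02 ± 0.06, Hadha at 0.06 ± 0.06, Acsl1 at -0.33 ± 0.20, Ppard at 0.18 ± 0.18 and Ppargc1b at -0.01 ± 0.26. Pparg fell in the mean (-0.69 ± 0.17, adjusted p = 0.0212), as did Angptl4 (-0.79), a secreted lipase inhibitor and PPAR target.

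**Figure D4:**
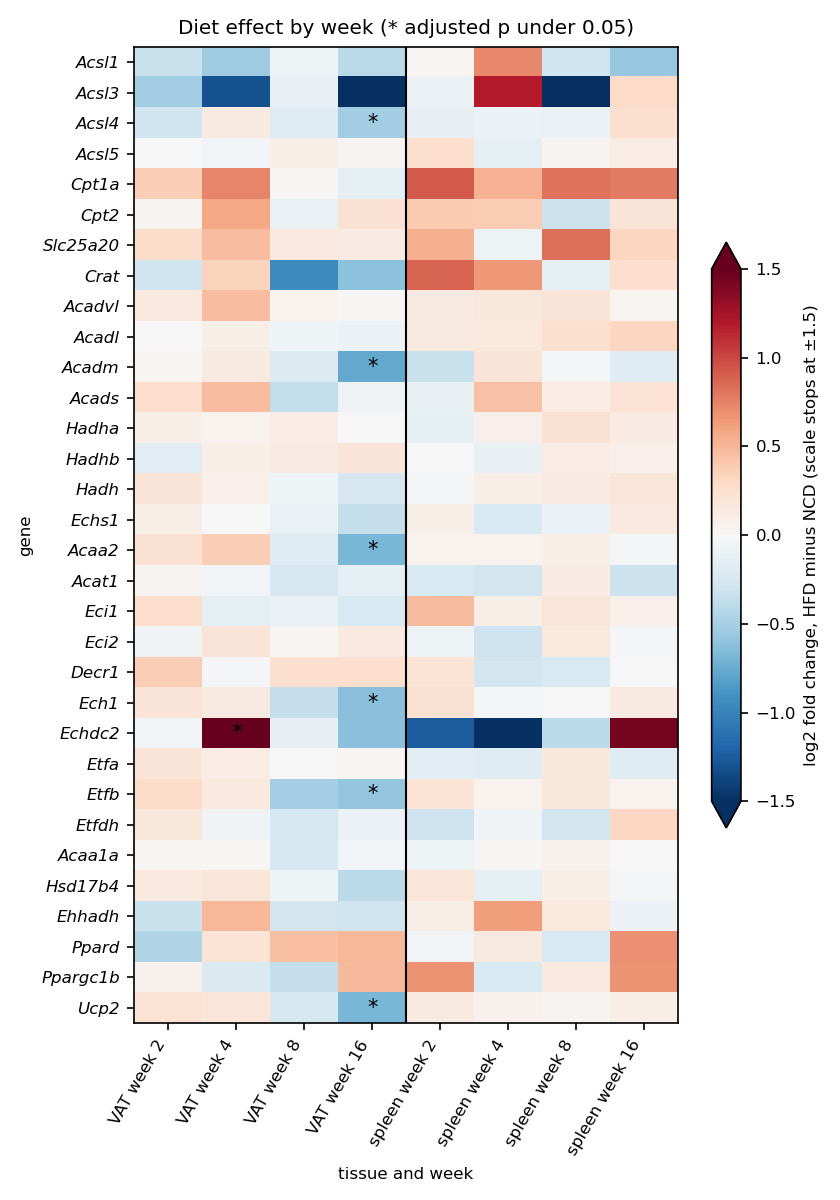
Log2 fold change of HFD against NCD (colour, scale stopping at ±1.5) for the 32 tested members (rows) in each tissue and week (columns), with an asterisk at an adjusted p under 0.05 (edgeR). The asterisks fall on 6 members in VAT at week 16 and on Echdc2 in VAT at week 4, and Cpt1a is red in all 4 spleen columns.

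The effect of diet in VAT was itself tested for a change between week 2 and week 16. It was lower at week 16 for 5 of the 32 members and higher for 0, where it was lower for 4.11% and higher for 3.18% of all genes. Ucp2, for example, had fold changes of 0.22 ± 0.11 at week 2, 0.18 ± 0.12 at week 4, -0.24 ± 0.11 at week 8 and -0.69 ± 0.12 at week 16, and the change from week 2 to week 16 was -0.91 ± 0.17 (adjusted p = 0.000864). For Acaa2 the change was -0.91 ± 0.19 (adjusted p = 0.00235) and for Ech1 -0.82 ± 0.18 (adjusted p = 0.0048). These 3 remained called in 11 of 11 fits that left out 1 library, while Acadm (-0.79 ± 0.24, adjusted p = 0.0433) remained in 4 and Etfb (-0.87 ± 0.26, adjusted p = 0.0347) in 3. Cpt1a (-0.51 ± 0.26, adjusted p = 0.27) did not pass. Under library totals the median gene moved to 0.27 from 0.04 and the share of calls that were higher to 71% from 43.6%. With that scaling 3 members and 353 genes in all were lower. In the same test 4 of 5 VAT Treg markers, 2 of 6 Treg markers and 6 of 10 genes of the immediate early and heat shock list were lower and 2 of 5 tested B cell genes higher, and their part in the members' change was not tested. Of PPAR partners and targets Pparg (-2.20, adjusted p = 0.00543) and Plin2 (-2.23) changed, and of the other oxidation and peroxisome biogenesis genes 0 did in edgeR.

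At week 16 the effect of HFD in VAT was also lower than that in spleen for 3 members, where it was lower for 2.32% and higher for 2.14% of all genes. Ucp2 differed by -0.81 ± 0.19 (adjusted p = 0.00455), Ech1 by -0.79 ± 0.18 (adjusted p = 0.00551) and Acaa2 by -0.69 ± 0.21 (adjusted p = 0.0435). In spleen at week 16 the same genes had fold changes of 0.09 ± 0.13, 0.13 ± 0.13 and -0.02 ± 0.15. The Ucp2 call remained in 11 of 11 fits without 1 library, the Ech1 call in 10 (it was lost without VAT NCD week 16 replicate 2, adjusted p = 0.0662) and the Acaa2 call in 3. Cpt1a differed by -0.96 ± 0.31 (adjusted p = 0.0652). Under library totals 2 members were called lower, as were 226 genes in all. The median gene then stood at 0.17 in place of 0.02, with 68.6% of all calls higher in place of 48%. Fitting only the groups compared, 1 member was called, Cpt1a (-0.95, adjusted p = 0.0328), and Ucp2 (adjusted p = 0.0759) and Ech1 (adjusted p = 0.0708) were not. VAT Treg markers (2 of 5), Treg markers (2 of 6) and the immediate early and heat shock list (4 of 10) also held genes with a lower effect in VAT, and 1 of 5 tested B cell genes had a higher one, and their part was not tested. Plin2 (-3.28), Lpin1 (-0.98) and Ncor1 (-0.60) differed in the same direction, and Pparg (-1.51, adjusted p = 0.515) did not pass.

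Time on NCD alone went with few called members. From week 0 to week 16, 1 member rose in VAT, Ucp2, from 518, 561 and 556 CPM to 805 and 757 CPM (0.57 ± 0.12, adjusted p = 0.0194), where 0.452% of all genes rose and 0.261% fell. These shares depended on the fit. All genes called were 101 in the main model, 830 when only the groups compared were fitted, 399 without the filter on low counts and 342 in DESeq2. In each of these 1 member was called. The Ucp2 call was lost without any 1 of the 5 libraries (adjusted p from 0.0707 to 0.256). The 2 NCD libraries of week 16 held the highest Ucp2 levels of all 25 VAT libraries. In spleen 0 members were called over the same time by edgeR or DESeq2, where edgeR called 0.654% of all genes, and 1 member and 1452 genes in all had an unadjusted p under 0.05.

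In culture, addition of IFNa lowered 6 of 32 tested members and raised 0, where 10.6% of all 12604 genes rose and 11% fell. The median was -0.18 over the members and 0.01 over all genes, and 26 of the 32 fold changes were negative. The 6 were Acsl3, Ucp2, Hsd17b4, Acaa2, Etfb and Etfa.

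Ucp2 was the most abundant member in culture (125 CPM per kb). It stood at 1057, 981 and 922 CPM with IL-33 and at 721 and 699.7 CPM with IFNa added, with no overlap and a log2 fold change of -0.43 ± 0.08 (adjusted p = 0.00028). Acsl3, a synthetase tied to lipid droplets, was low at 4.23, 6.16 and 5.78 CPM with IL-33 and near the floor of detection at 0.740 and 0.778 CPM with IFNa (-2.76 ± 0.48, adjusted p = 0.000276). Hsd17b4, the peroxisomal multifunctional enzyme, stood at 98.5, 89.8 and 81.8 CPM against 61.0 and 62.4 CPM (-0.50 ± 0.11, adjusted p = 0.00268). These 3 calls remained in 5 of 5 fits that left out 1 library.

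Acaa2 stood at 83.6, 72.5 and 64.8 CPM with IL-33 and at 56.6 and 50.3 CPM with IFNa (-0.42 ± 0.13, adjusted p = 0.0201). Etfb stood at 63.7, 62.6 and 66.4 CPM against 44.4 and 50.7 CPM (-0.39 ± 0.12, adjusted p = 0.0278). Etfa stood at 147, 167 and 159 CPM against 126 and 129 CPM (-0.26 ± 0.09, adjusted p = 0.0486). In all of them the groups did not overlap. The calls of Acaa2 and Etfb remained in 3 of 5 fits without 1 library and that of Etfa in 1 of 5, the fit without IL-33 replicate 1 (adjusted p up to 0.187 in the others). Etfa was also not called without the filter on low counts (adjusted p = 0.0645) or in DESeq2 (adjusted p = 0.0701). Acaa2 was lost without IFNa replicate 2 (adjusted p = 0.167) or IL-33 replicate 1 (adjusted p = 0.0766), and Etfb without IFNa replicate 1 (adjusted p = 0.209) or IL-33 replicate 3 (adjusted p = 0.0961).

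Cpt1a (-0.18 ± 0.10, adjusted p = 0.226), Acadl (0.25 ± 0.09, adjusted p = 0.0654), Hadha (-0.12 ± 0.09), Acsl1 (0.20 ± 0.19), Ppard (-0.39 ± 0.30) and Ppargc1b (-0.56 ± 0.46) did not pass. Treg markers summed to 5853 to 5949 CPM with IL-33 and to 3750 to 3811 CPM with IFNa, and the part of that difference in the member values was not tested. Acaa2, Etfb and Ucp2 were lower with IFNa in culture and lower on HFD at week 16 in VAT, comparisons that share no library. IFNa went with lower levels of 11% of all genes and HFD at week 16 with lower levels of 4.93%, and whether the members share more calls than other genes was not tested. Acadm and Ech1, lower in VAT at week 16, stood at -0.36 ± 0.16 (adjusted p = 0.126) and -0.05 ± 0.10 (adjusted p = 0.778) in culture.

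Of 22 tested PPAR partners and targets 4 were higher with IFNa and 0 lower, where 10.6% of all genes rose, and 18 did not pass. Among the 4 were Fabp5 (0.51), Plin2 (0.40) and the mediator subunit Med1 (0.36). Pparg stood at 3.95 to 6.04 CPM with IL-33 and 6.22 to 7.95 CPM with IFNa and did not pass (0.62, adjusted p = 0.187) in these cells of a reporter line. Of 33 other oxidation genes Acot2 (0.51) and Abcd4 (0.49) rose and Acsl6 fell (-3.28, adjusted p = 0.00983), and of 17 peroxisome biogenesis genes Pex16 (0.77) and Pex5 (0.53) rose and 0 fell.

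**Figure D5:**
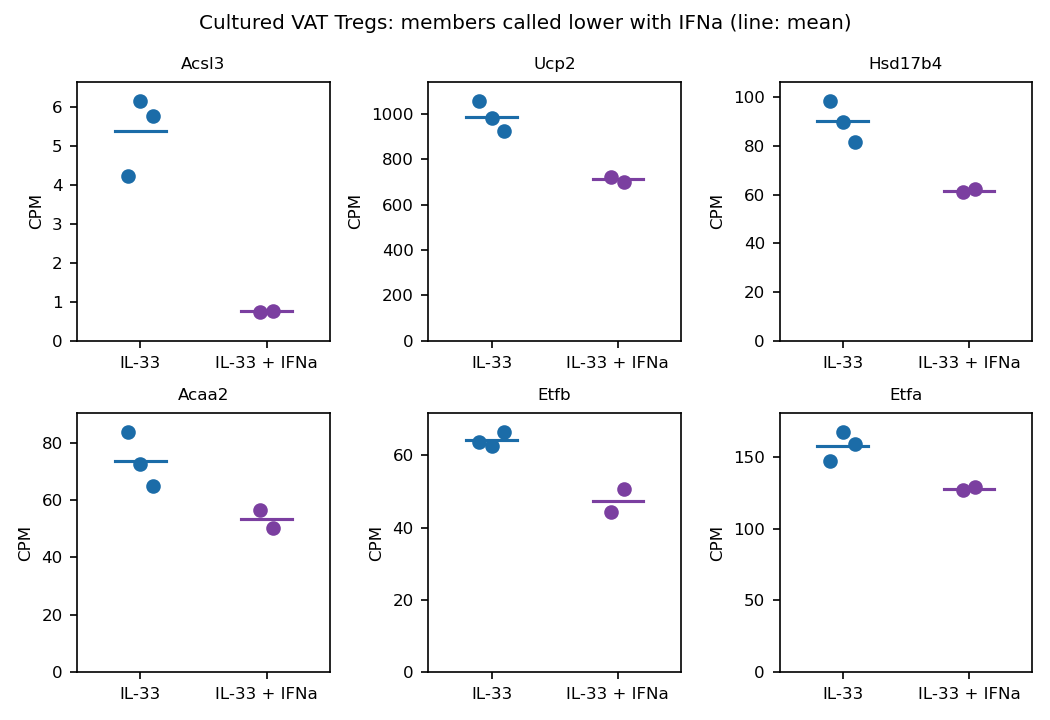
Levels in CPM (y axis) of the 6 members that were lower with IFNa in cultured VAT Tregs, with 1 point per library (3 with IL-33, 2 with IL-33 and IFNa) and a line at each mean. In each panel both IFNa points lie below the 3 points without it.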

How the data were processed

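RNA of 1000 sorted cells per library was copied with an oligo(dT) primer, cut and tagged with Tn5, amplified for 18 PCR cycles and read as paired ends of 38 bases, per the labels' protocols. The authors deposited a table of raw counts per gene symbol (55011 symbols, 56 libraries, no normalization). Reads were aligned to mm10 with STAR 2.7.3a and counted with featureCounts, per the submitters' processing notes. For the annotation release, the strand setting and multimapping reads, the treatment is not given in the sources used. Amplified reads carry no molecular identifiers, so floors cover counting error only.

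Groups came from the titles. CPM values are counts over the deposited library total, and per-length levels use GENCODE M21 exon unions. Differences were tested with edgeR 4.0.16 in R 4.3.3 (TMM, filterByExpr by group, robust quasi-likelihood F test, Benjamini-Hochberg adjustment over all genes tested, called under 0.05) in 4 models: all 51 mouse libraries, 25 VAT, 26 spleen and 5 culture libraries, with 18 comparisons. Means over weeks weight each group equally. A standard error is the size of the log2 fold change over the square root of F. Full values were given for up to 12 called members per comparison by smallest p, and by fixed choice for Cpt1a, Acadl, Hadha, Acsl1, Ppard, Ppargc1b and Ucp2, and for the 3 smallest adjusted p of each other list. Some genes these rules name are not reported here. The members and the lists were chosen with earlier results of these data known. The model code was tested on simulated data.

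Alternatives were DESeq2 1.42.0, RLE scaling, no filter, a replicate block, only the groups compared, each library left out, and, chosen after seeing the data, library totals and leaving out week 4.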

Additional observations from a re-analysis of the deposited data

Results flagged for a closer look

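The 8 results here are differences between diet effects that passed the test of the difference itself (edgeR, adjusted over all genes). From week 2 to week 16 in VAT, the effect of HFD changed by -0.91 for Ucp2 (adjusted p = 0.000864), by -0.91 for Acaa2 (adjusted p = 0.00235), by -0.82 for Ech1 (adjusted p = 0.0048), by -0.87 for Etfb (adjusted p = 0.0347) and by -0.79 for Acadm (adjusted p = 0.0433) on the log2 scale. At week 16 the effect in VAT minus that in spleen was -0.81 for Ucp2 (adjusted p = 0.00455), -0.79 for Ech1 (adjusted p = 0.00551) and -0.69 for Acaa2 (adjusted p = 0.0435). All of them rest on the 2 NCD libraries of week 16 in VAT. No group of libraries was larger than 3, so single libraries were not tested for standing apart within a group.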

How the results depend on the processing

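Over the 18 comparisons, RLE scaling left the number of members called as it was. Without the filter on low counts 2 members were called in VAT at week 4 (Cpt1a joined Echdc2). Cpt1a alone was called in the VAT mean, in spleen at weeks 2, 8 and 16 and in the difference of mean effects. Calls over all genes rose too, to 115 from 3 in VAT at week 4 and to 805 from 595 in the VAT mean. In spleen they rose to 85 from 4, 26 from 0 and 26 from 0 at weeks 2, 8 and 16. In the difference of mean effects they rose to 797 from 380. DESeq2 called 1 (Cpt1a) in spleen at week 2 and in the difference of mean effects, with 37 and 631 genes called in all. In VAT at week 16 fitting only the groups compared gave 4 members, without Acsl4 and Etfb (789 genes in all in place of 1309), and no filter gave 5, without Etfb. In the cultures 5 were called without the filter and in DESeq2. Fitting only the groups compared gave 3 for the change of the VAT effect, 1 for the spleen mean and 1 for the week 16 difference between tissues, and library totals gave 3 for the change of the VAT effect. Leaving out week 4 gave 4 in the VAT mean and 2 in the difference of mean effects, with 928 and 635 genes called in all. Library totals reversed Eci2 (-0.028), Hadha (-0.0087) and Hadhb (-0.17) between tissues on HFD. The labels do not say that a replicate number marks a shared mouse or day. Of 23 same-numbered pairs of diet or IFNa arms (-0.123 to 0.307) 3 correlated above 0.1, as did 3 of 24 tissue pairs (-0.191 to 0.36). The 3 tissue pairs are those of HFD week 16 (0.36, 0.142 and 0.286), while the NCD week 16 pairs were at 0.0275 and 0.0187. The 3 pairs of diet arms are spleen week 16 replicates 1 and 3 (0.307 and 0.162) and VAT week 2 replicate 2 (0.148). With the replicate block the difference of mean effects gave 1 member (Cpt1a, -0.60, adjusted p = 0.0289), and the count in VAT at week 16 was again 6. In the week 16 difference between tissues Acaa2 was not called with the block (-0.60, adjusted p = 0.141) and Echdc2 was (-5.16, adjusted p = 0.0334). In the cultures the block gave 5, without Etfa (adjusted p = 0.0828) and Etfb (adjusted p = 0.0773) and with Acsl5 (-0.26, adjusted p = 0.0364). Leaving out 1 library gave 21 to 24 members between tissues without HFD and 20 to 23 on HFD. All genes called ran from 8960 to 9178 and from 6889 to 7363. In VAT the members called were 0 to 0 at week 2, 0 to 1 at week 4, 0 to 0 at week 8 and 3 to 5 at week 16. They were 0 to 1 in the mean, 3 to 5 for the change of effect and 0 to 0 from week 0 to 16. All genes called in VAT ran from 2 to 54, 0 to 6, 37 to 248 and 643 to 1273 at weeks 2, 4, 8 and 16. They ran from 372 to 657 in the mean, 638 to 1272 for the change of effect and 1 to 37 from week 0 to 16. In spleen the members called were 0 to 1 at weeks 2 and 4 and 0 to 0 at weeks 8 and 16. They were 1 to 2 in the mean and 0 to 0 from week 0 to 16. All genes called in spleen ran from 0 to 2, 0 to 268, 0 to 7 and 0 to 1 at weeks 2, 4, 8 and 16. They ran from 16 to 283 in the mean and 7 to 126 from week 0 to 16. The difference of effects gave 0 to 1 members in the mean and 1 to 4 at week 16, and the cultures 4 to 6. All genes called ran from 216 to 477, 386 to 762 and 1901 to 2590 in these 3. The cause of these changes was not tested. Depth limited Ppara, Ppargc1a and Pdk4, which stood at or near the floor.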
